A study of Mus musculus with 4 samples.

Results

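The glycine tRNAs with an anticodon other than GCC, deposited as a single family named Gly_non_GCC, were described in small RNA from mouse bone marrow. They make up 1 of 23 tRNA families and were chosen by the name of their tables. The table runs over 73 positions, and each position carries the forward-strand coverage, that is, the number of reads that span it times a constant of the library. The groups were 2 libraries of Dnmt2-/- mice (Dnmt2 KO) and 2 libraries of wild-type mice (WT), all C57BL/6 and taken at postnatal day 8. The labels give no further allele or agent, and do not say whether a library is 1 animal or a pool. Names in the RefSeq gene table of GRCm38.p6 hold 14 glycine tRNA genes other than GCC (7 with TCC, 6 with CCC and 1 with ACC) beside 14 with GCC, and the sources used here do not list which of them entered the tables. The tables hold tRNA alone, so the bone marrow label could not be checked against marker genes.

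A tRNA carries its amino acid to the ribosome and reads a codon with the anticodon, which lies in the loop at the middle of its sequence. Ribonucleases such as angiogenin cut tRNAs in that loop, and the pieces persist as 5′ and 3′ fragments, with 5′ fragments of glycine tRNA common in mouse blood and blood-forming tissue. Dnmt2 (Trdmt1) methylates a cytosine of the anticodon loop in tRNA-Gly-GCC and in certain aspartate and valine tRNAs, and this methylation is known to protect these tRNAs from cutting. The non-GCC glycine tRNAs carry the same amino acid and are not known substrates, so the comparison asked how their fragments behaved beside those of GlyGCC. In mammals the 5′ parts of some tRNA-Gly-CCC and tRNA-Gly-GCC genes are near identical, and the assignment of reads that match both is not stated in the labels or headers. Values at the 5′ positions are therefore uncertain as to the tRNA of origin.

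Read depth was read from the smallest step between values, taken as the worth of 1 read. The highest position of Gly_non_GCC held 16426 and 7296 reads in Dnmt2 KO replicates 1 and 2, and 22092 and 9748 reads in WT replicates 1 and 2. The lowest position, position 73, held 16 to 24 reads. On the reverse strand the highest position held at most 3 reads. By their ends, libraries of the same number were more alike than libraries of the same genotype. The distribution of fragment ends overlapped by 88.7% between the libraries numbered 1 and by 94.2% between those numbered 2, against 73.4% to 77.3% between libraries of different numbers. By the whole coverage profile the order was less clear, with an overlap of 97.5% between the libraries numbered 1, 99.5% between those numbered 2 and 96.0% to 97.6% between libraries of different numbers. No label explains the numbers, and values are given library by library for this reason.

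Gly_non_GCC was a middling to major family, with more coverage in Dnmt2 KO than in WT as deposited. The amount lay within the error of a fit with genotype alone, which counts scatter shared by same-numbered libraries as error. A fit with the replicate block is given at the end. It held 6.29% and 3.47% of the coverage of all families in Dnmt2 KO replicates 1 and 2, and 5.47% and 2.97% in WT replicates 1 and 2. It ranked between the third and the sixth of 23 families in each library. Its summed coverage was 6.90 and 6.60 deposited units in the Dnmt2 KO libraries, against 4.79 and 4.26 units in the WT libraries. The 2 genotypes did not overlap, Dnmt2 KO being the higher, which held for 5 of 23 families (21.7%). The ratio of Dnmt2 KO to WT was 1.44 within number 1 and 1.55 within number 2.

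With limma, the log2 difference of the total was 0.58 (SE 0.68, 95% interval −1.09 to 2.25, adjusted p = 0.973), beside a median of 0.47 over all families. Levels between libraries rest on the deposited constant. The difference was 0.21 after scaling to equal totals and 0.14 after scaling to an equal median family. With limma, 0 of 23 families (0%) passed an adjusted p of 0.05, and 0 had an unadjusted p under 0.05. GlyGCC had 69.6 and 79.3 units in Dnmt2 KO libraries and 49.7 and 57.9 in WT libraries. Relative to GlyGCC in the same library, which removes the constant, the log2 difference of Gly_non_GCC was 0.11 (SE 0.88, interval −1.66 to 1.88, limma adjusted p = 0.978). Leaving out Dnmt2 KO replicate 1 turned it to −0.017, and leaving out WT replicate 2 turned it to −0.086. In this comparison limma gave all 22 families the same SE, so the SE and interval reflect the scatter of all families.

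**Figure D1:**
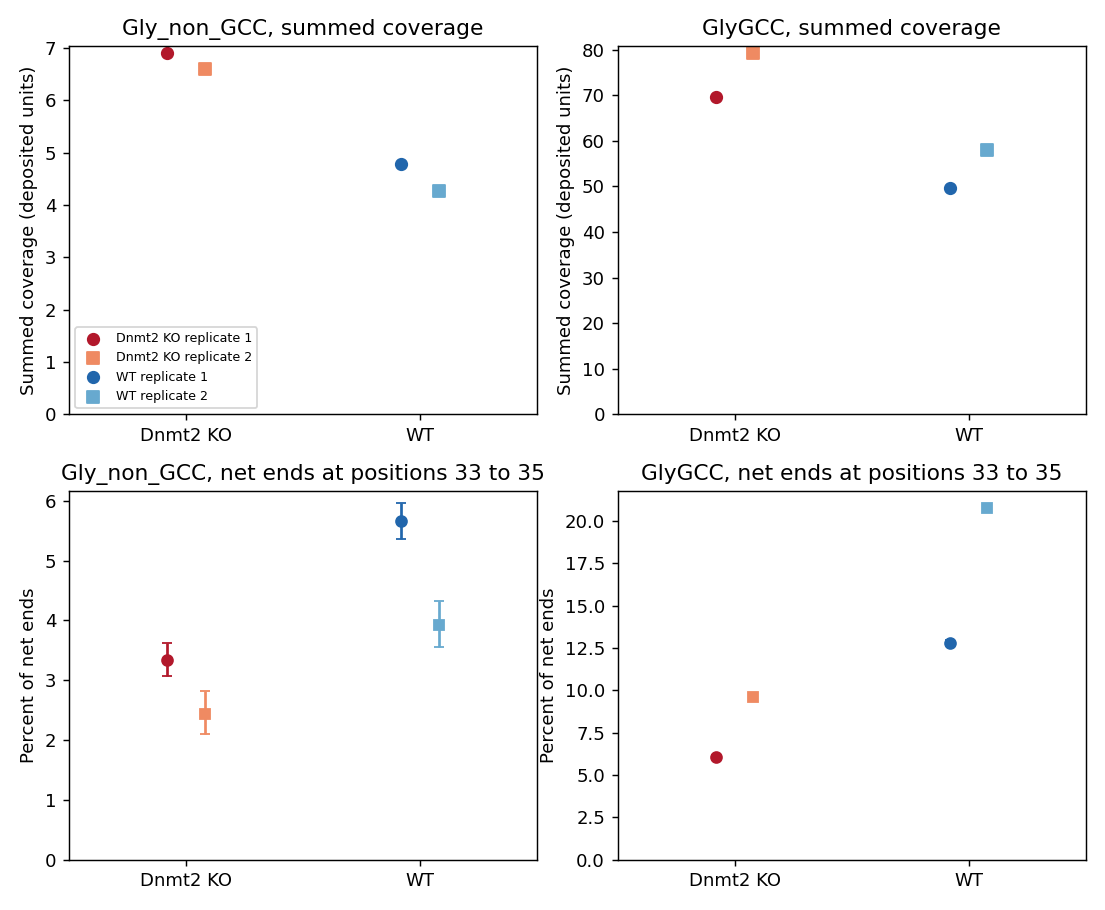
Summed coverage in deposited units (top) and net ends at positions 33 to 35 as percent of all net ends (bottom) for Gly_non_GCC (left) and GlyGCC (right), 1 point per library, with exact 95% binomial intervals in the bottom panels (narrower than the symbols for GlyGCC). Gly_non_GCC coverage was 6.90 and 6.60 units in Dnmt2 KO and 4.79 and 4.26 in WT, and its ends at positions 33 to 35 were 3.34% and 2.44% in Dnmt2 KO and 5.66% and 3.93% in WT.

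Fragment starts lay almost wholly at the 5′ end of the table. A net start is the rise of coverage at a position over the one before, in reads, and starts and ends that meet at one junction cancel. Position 1 held 95.3% and 87.1% of net starts in Dnmt2 KO replicates 1 and 2, and 96.0% and 87.3% in WT replicates 1 and 2. The libraries numbered 1 were high and those numbered 2 low in both genotypes, so the genotypes overlapped. Coverage at position 1 was 96.4% and 91.4% of that at the peak in Dnmt2 KO libraries, and 97.5% and 91.7% in WT libraries (limma log2 difference −0.011, SE 0.093, adjusted p = 0.969). With limma the log2 difference at position 1 was −0.0070 (SE 0.39, adjusted p = 0.998).

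The remaining starts fell into 3 groups. Positions 2 to 19 took small rises all along, and their levels at positions 10 to 19 followed the replicate number. These 10 positions held 1.67% and 4.98% of net starts in Dnmt2 KO replicates 1 and 2, and 0.882% and 5.61% in WT replicates 1 and 2. Position 3, the third highest start, held 139 and 73 reads in Dnmt2 KO libraries and 94 and 57 reads in WT libraries, which is 0.837% and 0.954% against 0.419% and 0.557% of net starts. The genotypes did not overlap at position 3, with Dnmt2 KO the higher, as at 17.6% of the 250 start positions tested in all families. Position 3 itself was under the mean of 1% that the test required. GlyGCC was likewise higher in Dnmt2 KO there, at 0.948% and 1.02% against 0.515% and 0.629% in WT. Positions 10 and 12 completed the highest 5. Position 10 held 4 and 77 reads in Dnmt2 KO replicates 1 and 2 and 11 and 134 reads in WT replicates 1 and 2, and position 12 held 36 and 61 reads against 30 and 118.

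A separate start lay just 3′ of the anticodon loop. Position 41, the second highest start, held 51 and 148 reads in Dnmt2 KO replicates 1 and 2, and 128 and 173 reads in WT replicates 1 and 2. As shares of net starts these were 0.307% and 1.93% in Dnmt2 KO, against 0.570% and 1.69% in WT, so the genotypes overlapped and the libraries numbered 2 were high. The log2 difference was −0.27 (SE 1.11, limma adjusted p = 0.997). It turned to 0.89 without Dnmt2 KO replicate 1. The last group, positions 57 to 60, held 72 and 78 reads in Dnmt2 KO libraries, against 117 and 134 reads in WT libraries. As shares of net starts these were 0.433% and 1.02% in Dnmt2 KO and 0.521% and 1.31% in WT, and the genotypes overlapped.

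**Figure D2:**
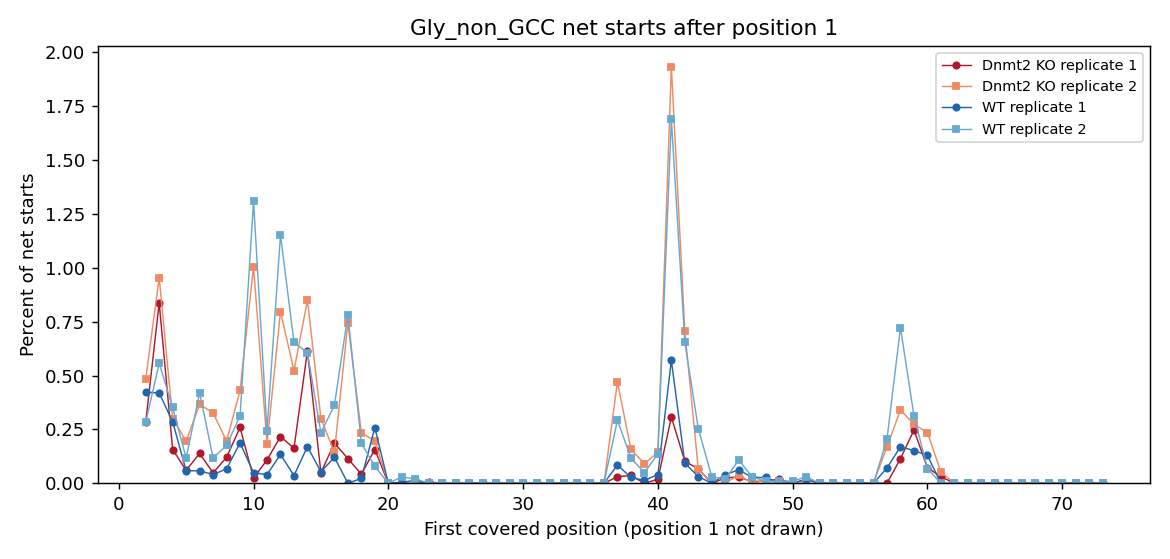
Net starts of Gly_non_GCC from position 2 onward, as percent of all net starts, by first covered position and library. Position 41 stands out at 0.307% and 1.93% in Dnmt2 KO replicates 1 and 2 and at 0.570% and 1.69% in WT replicates 1 and 2, and the libraries numbered 2 (squares) lie above those numbered 1 (circles) at positions 10, 12 and 41.

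Most fragments ended within 3 neighbouring positions. A net end is the fall of coverage after a position. Positions 30 to 32 together held 89.5% and 81.6% of net ends in Dnmt2 KO replicates 1 and 2, and 84.2% and 82.1% in WT replicates 1 and 2. A fragment that starts at position 1 and ends there covers 30 to 32 positions, although coverage does not link a start to an end. Summed coverage divided by net starts, an upper bound on the mean covered length, was 31.6 and 30.8 positions in Dnmt2 KO libraries and 32.5 and 30.8 in WT libraries (limma log2 difference −0.020, SE 0.069, adjusted p = 0.952).

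Position 32 was the highest end in Dnmt2 KO replicates 1 and 2 and in WT replicate 1, while WT replicate 2 had more ends at position 30. It held 52% and 33.3% of net ends in Dnmt2 KO replicates 1 and 2, and 47.7% and 30.7% in WT replicates 1 and 2. The ratio of Dnmt2 KO to WT was 1.09 within number 1 and 1.08 within number 2. Position 30 held 18.8% and 32.4% in Dnmt2 KO, against 13.3% and 34.2% in WT, and position 31 held 18.7% and 15.9% against 23.2% and 17.3%. Position 32 thus led clearly in both libraries numbered 1 and lay close to position 30 in both numbered 2, while the order of positions 30 and 31 differed between the libraries numbered 1. With limma the log2 differences were 0.21 at position 30 (SE 0.69), −0.21 at position 31 (SE 0.41) and 0.12 at position 32 (SE 0.50), with adjusted p = 0.965, 0.958 and 0.968. That of position 32 turned to −0.20 without Dnmt2 KO replicate 1.

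**Figure D3:**
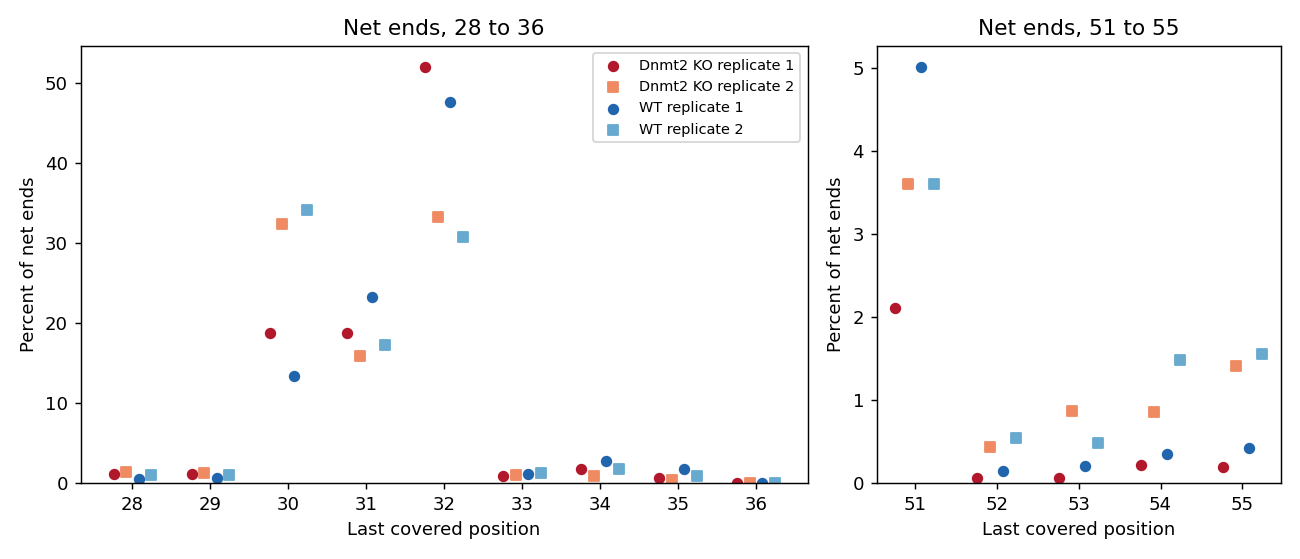
Net ends of Gly_non_GCC as percent of all net ends, by last covered position and library, at positions 28 to 36 (left) and 51 to 55 (right, other scale). Position 32 held 52% and 33.3% in Dnmt2 KO replicates 1 and 2 and 47.7% and 30.7% in WT replicates 1 and 2, and a second group of ends begins after position 51.

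Ends beyond position 32, inside the anticodon loop window, were fewer in Dnmt2 KO libraries in these values. Positions count rows from the 5′ end, and no label ties them to standard tRNA numbering, so the window is approximate. Position 34, the fifth highest end, held 292 and 72 reads in Dnmt2 KO replicates 1 and 2, against 616 and 177 in WT replicates 1 and 2. These were 1.76% and 0.941% of net ends in Dnmt2 KO, against 2.74% and 1.73% in WT. Dnmt2 KO replicate 1 and WT replicate 2 were nearly level there, so the genotypes overlapped. The log2 difference was −0.71 (SE 0.54, 95% interval −2.26 to 0.84, limma adjusted p = 0.865).

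Over positions 33 to 35, a window chosen after the values were seen and so given without a test, net ends were 3.34% and 2.44% in Dnmt2 KO libraries and 5.66% and 3.93% in WT libraries. The groups did not overlap, and the ratio was 0.590 within number 1 and 0.622 within number 2. GlyGCC had more ends in this window, with 6.06% and 9.59% in Dnmt2 KO libraries and 12.8% and 20.8% in WT libraries, and ratios of 0.473 and 0.462. Ends at positions 28 and 29 went the other way, at 2.35% and 2.72% in Dnmt2 KO libraries and 1.27% and 2.08% in WT libraries. GlyGCC did the same there, with 2.56% and 2.62% in Dnmt2 KO libraries and 1.66% and 1.81% in WT libraries. Among the 8 positions of Gly_non_GCC with at least 1% of net ends on average, Dnmt2 KO lay above WT at 2 (positions 28 and 29, 25.0%) and below at 1 (position 33, 12.5%), beside 18.1% and 16.3% of the 276 positions tested in all families. With limma, 0 of the 276 positions passed and 8 had an unadjusted p under 0.05.

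Coverage was also summed over the anticodon loop window, positions 32 to 38, most or much of which lay at position 32. The window held 2.63% and 2.68% of Gly_non_GCC coverage in Dnmt2 KO replicates 1 and 2, and 3.40% and 2.72% in WT replicates 1 and 2. The genotypes did not overlap, with Dnmt2 KO the lower as in 8 of 23 families (34.8%), although Dnmt2 KO replicate 2 and WT replicate 2 were almost level. The log2 odds difference was −0.20 (SE 0.24, limma adjusted p = 0.849), and −0.041 without WT replicate 1. Relative to GlyGCC it was 0.066 (SE 0.59, interval −1.12 to 1.26, limma adjusted p = 0.988), and leaving out Dnmt2 KO replicate 1 gave −0.18 and leaving out WT replicate 2 gave −0.27. In the comparison relative to GlyGCC limma gave all families the same SE, which reflects the scatter of all families. For the loop share limma called 0 of 23 families, and 1 family reached an unadjusted p under 0.05. Positions 1 to 34 held 97.3% and 93.4% of the coverage in Dnmt2 KO libraries, against 95.2% and 93.6% in WT libraries. That log2 odds difference was 0.40 (SE 0.69, limma adjusted p = 0.928) and turned to −0.27 without Dnmt2 KO replicate 1.

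Position by position, the coverage of Gly_non_GCC peaked at position 19 in each library. It reached 0.216 and 0.205 units in Dnmt2 KO replicates 1 and 2, and 0.145 and 0.132 units in WT replicates 1 and 2. As deposited, the genotypes did not overlap at 35 of 73 positions (47.9%), with Dnmt2 KO higher at each, beside 17.1% of the 1656 positions tested, and Dnmt2 KO was lower at 0 of 73, beside 0.302%. Positions 1 to 32 are largely the same reads, so this count is not one of independent positions. Among the 35 the estimate was highest at position 72, with 0.000749 and 0.00121 units in Dnmt2 KO libraries and 0.000565 and 0.000419 units in WT libraries, from 31 to 86 reads. The log2 difference of coverage there was 0.84 (SE 0.67, limma adjusted p = 0.999), and the lowest was 0.52 at position 71 (SE 0.67, limma adjusted p = 0.999). With limma, 0 of 1656 positions passed for coverage, and 0 had an unadjusted p under 0.05. As shares of the family total, Dnmt2 KO lay above WT at 7 positions, 13 to 19 (9.59%), beside 14.7% over all families, and below at 3 positions, 33 to 35 (4.11%), beside 15.9%. Both shares are under the background. At position 34 the share was 0.173% and 0.237% in Dnmt2 KO libraries and 0.338% and 0.275% in WT libraries. The log2 difference of that share was −0.57 (SE 0.25, limma adjusted p = 0.959), the lowest of the positions whose groups did not overlap, and the highest was 0.024 at position 19 (SE 0.14, limma adjusted p = 0.999). With limma, 0 of 1656 positions passed for the share, and 58 had an unadjusted p under 0.05.

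**Figure D4:**
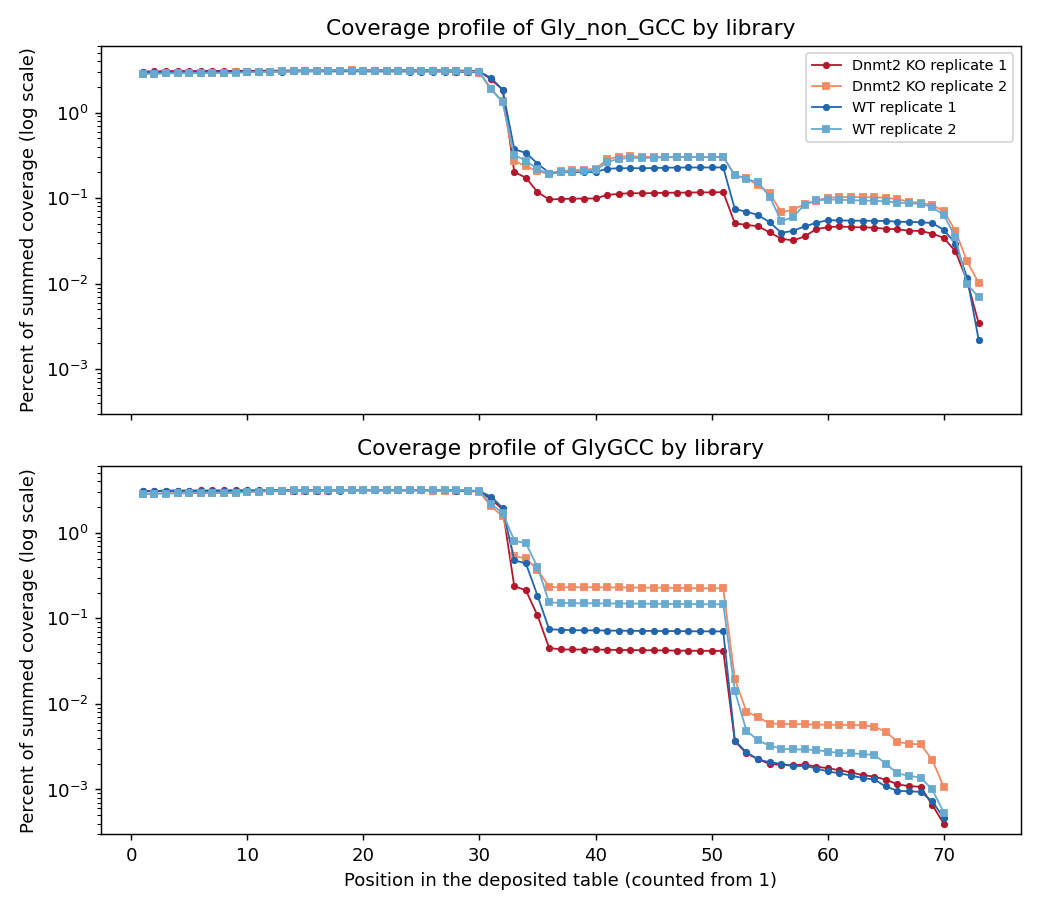
Coverage at each position as percent of the summed coverage of Gly_non_GCC (top) and GlyGCC (bottom) in the 4 libraries, on a log axis. Both families are flat up to position 30 and fall until position 35, but beyond position 51 Gly_non_GCC keeps 2 lower steps, whereas GlyGCC falls to far smaller shares.

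Coverage 3′ of the anticodon was low, and as shares of the family total the genotypes overlapped in it. Positions 36 to 51 held 1.75% and 4.36% of the coverage in Dnmt2 KO replicates 1 and 2, and 3.48% and 4.26% in WT replicates 1 and 2. Dnmt2 KO replicate 1 was low and the other libraries were close together. A sharp fall followed position 51, where 350 and 276 reads ended in Dnmt2 KO libraries and 1126 and 369 in WT libraries. These were 2.11% and 3.61% of net ends in Dnmt2 KO and 5.02% and 3.60% in WT (log2 difference −0.61, SE 0.49, limma adjusted p = 0.865). GlyGCC fell at the same position, by 2014 and 5805 reads in Dnmt2 KO libraries and by 5046 and 5667 reads in WT libraries. In 4 of 23 families, both glycine families among them, this fall was the highest of the stretch around it in each library. In the other 19 families it was so in no library. The labels and headers do not state the read length, and its part in the fall after position 51 was not tested.

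Further starts and ends lay 3′ of the anticodon. Positions 37 to 43 held 0.560% and 3.57% of net starts in Dnmt2 KO replicates 1 and 2, and 0.860% and 3.19% in WT replicates 1 and 2. Positions 52 to 55 held 0.542% and 3.58% of net ends in Dnmt2 KO replicates 1 and 2, and 1.13% and 4.06% in WT replicates 1 and 2. Both windows were high in the libraries numbered 2 and low in those numbered 1. At the 3′ end, positions 57 to 73 held 0.620% and 1.36% of the coverage in Dnmt2 KO replicates 1 and 2, and 0.761% and 1.26% in WT replicates 1 and 2. Positions 69 to 73 held 1.22% and 2.55% of net ends in Dnmt2 KO libraries, from 202 and 195 reads, and 1.66% and 2.42% in WT libraries, from 372 and 248 reads. The genotypes overlapped there too. The last 20 positions held 0.740% and 1.69% of coverage in Dnmt2 KO libraries and 0.916% and 1.57% in WT libraries, with overlapping genotypes. Their log2 odds difference was −0.11 (SE 0.63, limma adjusted p = 0.954), and it turned to 0.49 without Dnmt2 KO replicate 1 and to 0.28 without WT replicate 2. Limma gave all families this SE, so it reflects the scatter of all families.

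Set beside GlyGCC, the 5′ fragments of Gly_non_GCC had nearly the same ends in the same library. At position 30, Gly_non_GCC held 8.80% and 8.18% of the net ends of both glycine tables in Dnmt2 KO replicates 1 and 2, and 8.79% and 8.14% in WT replicates 1 and 2. At position 31 it held 9.06% and 8.26% in Dnmt2 KO libraries and 9.02% and 8.23% in WT libraries. At position 32 it held 9.03% and 8.08% in Dnmt2 KO libraries and 8.73% and 7.56% in WT libraries, with exact 95% binomial intervals of 8.85% to 9.21% in Dnmt2 KO replicate 1 and 8.57% to 8.89% in WT replicate 1. The main ends thus split between the tables in a ratio that differed little between positions and genotypes and was higher in number 1 than in number 2. Whether reads that match both tables set this ratio was not tested.

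Further along, the split was different. Of net ends at positions 34 and 35, Gly_non_GCC held 4.34% and 1.36% in Dnmt2 KO replicates 1 and 2, and 3.57% and 1.02% in WT replicates 1 and 2. Of net starts at positions 41 and 42 it held 100% in each library, as GlyGCC had 0 net starts there beside 68 and 202 in Dnmt2 KO and 149 and 240 in WT. Of net ends at positions 52 to 55 it held between 41.6% and 66.0%. The first position at which Gly_non_GCC exceeded the coverage of GlyGCC was 52 in Dnmt2 KO replicate 1 and WT replicate 1, and 53 in Dnmt2 KO replicate 2 and WT replicate 2. In Dnmt2 KO replicate 2 the share was again under 50% at position 56, at 49.1%. The genotypes thus overlapped, and the first crossing moved with the replicate number.

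**Figure D5:**
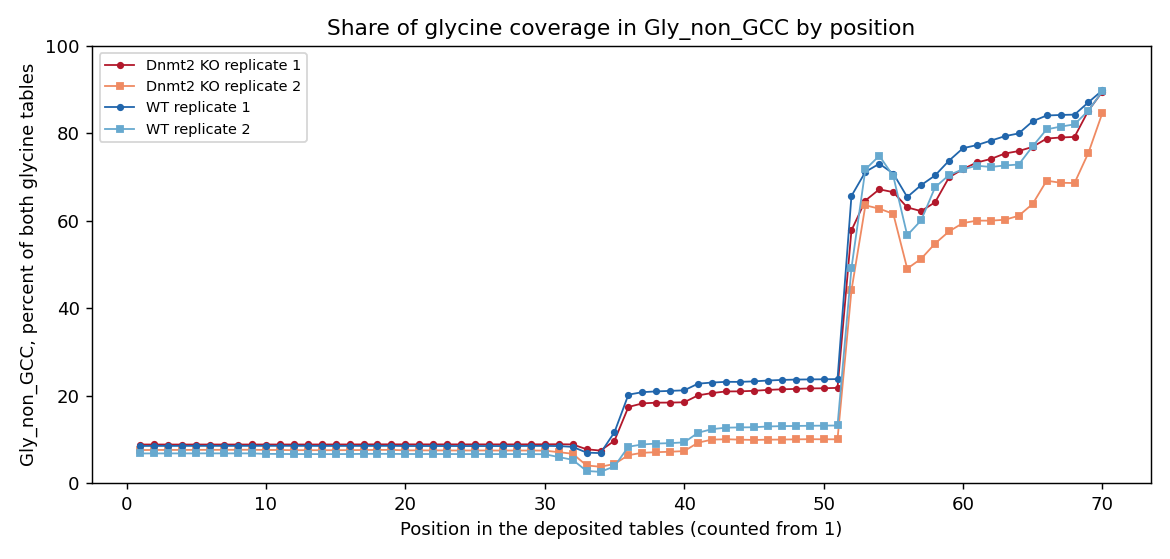
Coverage of Gly_non_GCC as percent of the coverage of Gly_non_GCC and GlyGCC together, by position and library. The share lies under 12% in each library up to position 35 and first passes 50% at position 52 in the libraries numbered 1 and at position 53 in those numbered 2.

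Over the whole tables, Gly_non_GCC made up 9.02% and 7.68% of glycine coverage in Dnmt2 KO replicates 1 and 2, and 8.79% and 6.85% in WT replicates 1 and 2. Its profile overlapped that of GlyGCC by 97.1% (summed minimum of the position shares, mean of 4 libraries), the highest of the 22 other families. Cys followed with 93.8% and Glu with 92.0%. The overlap describes where coverage lies and rests on the long flat 5′ stretch that these families share.

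With genotype left aside, the position shares of Gly_non_GCC and GlyGCC were compared within the 4 libraries with limma. At positions 1 to 32, 0 of 32 passed, with log2 differences between −0.17 and −0.022. At positions 41 to 70, 30 of 30 were higher in Gly_non_GCC, by 0.93 to 1.07 on the log2 scale at positions 41 to 51 and by 2.12 to 2.94 at positions 52 to 70 (adjusted p at most 0.0212). At positions 33 and 34 the shares were lower in Gly_non_GCC, by −0.71 and −0.78 (limma adjusted p = 0.0488 and 0.0428). Calls above 0 thus covered 42.9% and calls below 0 2.86% of the 70 shared positions, beside 45.9% and 27.5% of the 1504 positions of all families compared with GlyGCC. Positions 52 to 70 had 19 calls with any single library left out. With positions dropped where the mean Gly_non_GCC share was under 10 times the pseudocount, 3 calls stood there. The dropped positions were not tested, and those kept in this stretch were all called. The filter used the Gly_non_GCC share alone and so kept positions where that share was high, and these calls add no support. GlyGCC shares from position 53 on lay under the pseudocount of 0.01%. Positions 41 to 51 had 1 call without Dnmt2 KO replicate 1, 11 without Dnmt2 KO replicate 2, 10 without WT replicate 1 and 9 without WT replicate 2. At positions 33 and 34 there were 2 calls without Dnmt2 KO replicate 1 and 0 without any other library.

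Fixed windows of the tables were compared in the same way. The last 20 positions held more of the coverage in Gly_non_GCC than in GlyGCC, whose shares were 0.0735% and 0.335% in Dnmt2 KO libraries and 0.101% and 0.205% in WT libraries. The log2 odds difference was 2.96 (SE 0.62, limma adjusted p = 1.09e-05), higher in 4 of 4 libraries, and 21 of 22 families (95.5%) passed above GlyGCC in this measure. The tables differ in length, so that the window begins at position 51 in GlyGCC, ahead of the fall, and beyond it in Gly_non_GCC. For the 5′ share the log2 odds difference was −1.39 (SE 0.70, limma adjusted p = 0.0605, 77.3% of families passing below GlyGCC). The difference was below 0 in 4 of 4 libraries, and limma gave all families the same SE. It passed without Dnmt2 KO replicate 2, at −1.62 (limma adjusted p = 0.0311). For the loop share it was −0.24 (SE 0.26, limma adjusted p = 0.386), where 9.09% of families passed below GlyGCC and 59.1% above. For the apparent length it was −0.016 (SE 0.034, limma adjusted p = 0.641), where 86.4% of families passed below GlyGCC. As for the 5′ share, limma gave all families the same SE for the last 20 positions and for the loop share. These SEs reflect the scatter of all families.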

How the data were processed

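The deposited tables hold coverage signal, per the file headers 1 column per library and strand, at each position of a tRNA family. Small RNA was end-repaired and size-selected per the labels' protocols, with CASAVA 1.8.3 and Bowtie among the tools listed per the submitters' processing notes. Alignment settings, the tRNA reference, the build and the normalization are not stated in any label or header. Values were whole multiples of a single step per library (100%, within 0.01 of a step), read as the worth of 1 read, which gives the depth. A floor of 3 reads is 3.94e-05 and 8.41e-05 units in the Dnmt2 KO libraries and 1.97e-05 and 4.05e-05 in the WT libraries.

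Rows were counted from 1. Limma 3.58.1 in R 4.3.3 was fitted across all families or positions, with genotype as the sole term (or an intercept against GlyGCC), on log2 values with pseudocounts of 0.001 (totals and shares), 1e-04 (positions and first position), 0.01 (percent of total) and 0.1 (percent of net starts or ends, positions with a mean of at least 1). Fold changes on this scale understate those of low values. Tests were two-sided with Benjamini-Hochberg adjustment at 0.05. With 2 against 2 libraries an exact permutation p cannot go below 0.333, so single values have none. Replicates may be technical, and the exact binomial intervals and the floors cover counting error only. The limma intervals rest on the SE of the fit, and so on scatter between libraries. In some fits limma gave all families the same SE. These were the share of the last positions and all family comparisons with GlyGCC except apparent length. In those fits the SE and interval reflect the scatter of all families, not that of Gly_non_GCC alone. The fits of family totals and of position coverage were run on simulated data with known changes and no scatter shared by number. That run does not show how the other fits perform, or how any fit performs under such scatter. As alternatives, each library was left out in turn, and the replicate block was added, with other pseudocounts, windows, filters and scalings tried beside them. Named are Gly_non_GCC, GlyGCC, the 3 most alike profiles, the peak, the 5 highest starts and ends, and the extreme estimates without overlap; further windows and other called features were chosen after the values were seen. The rule for the members is a table name, but the family and the lists were chosen with earlier results of these data known. The table of all glycine tRNAs was left out. The share of the first position in the peak was tested as well.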

Additional observations from a re-analysis of the deposited data

How the results depend on the processing

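Of 587 values under 19 alternatives, 521 kept their direction and side of the threshold or, for counts of calls, their rough size. A further 45 reversed in direction, 7 no longer passed the threshold, 2 newly passed it, and 12 counts of calls moved. For values far from the threshold, being kept means little more than having the same sign. Without each library in turn, log2 differences of Gly_non_GCC that changed sign ranged from −0.27 to 1.07 (5′ share), −0.70 to 0.49 (last 20 positions), −0.056 to 0.034 (first position ratio), −0.058 to 0.018 (apparent length), −0.086 to 0.30 (total relative to GlyGCC), −0.20 to 0.83 (5′ share relative to GlyGCC) and −0.27 to 0.40 (loop share relative to GlyGCC). For position coverage they were −0.24 to 0.22 (position 34), −0.53 to 0.77 (41) and −0.55 to 0.74 (51). For position share they were −0.031 to 0.058 (position 1), −0.021 to 0.061 (3), −0.0040 to 0.045 (10), −0.00093 to 0.038 (12), −0.025 to 0.027 (30), −0.26 to 0.19 (31), −0.22 to 0.26 (32), −1.08 to 0.22 (41) and −1.10 to 0.19 (51). For net starts they were −0.076 to 0.062 (position 1) and −0.98 to 0.89 (41), and for net ends −0.20 to 0.44 (32) and −0.47 to 0.88 (30). The 5′ share against GlyGCC ranged from −1.62 to −1.23, and was −1.57 (limma adjusted p = 0.0361) over positions 1 to 36. With the loop at positions 34 to 40, the loop share was −0.13 relative to GlyGCC and 0.12 against it. Coverage at positions 41 and 51 was −0.25 and −0.27 with one total, and −0.32 and −0.34 with one median family. The cause was not tested. For apparent length, 0 to 1 families passed without single libraries. Of net starts, 1 position passed over all families (position 56 of Sup), against 0 without each library, with the block, a pseudocount 10 times higher or a minimum of 0.5%. Of net ends, 2 passed with a pseudocount 10 times lower. Libraries of the same number were also deposited together, and no label says what else they share. With the replicate block, 2 families passed for the total, 1 for the loop share and 1 for the first position ratio, and no call of Gly_non_GCC changed (total 0.58, limma adjusted p = 0.266). Deviations of same-numbered libraries correlated by 0.862 across the 23 totals and by 0.309 across 276 net ends, and features are not independent replicates. Depth limits positions 53 to 70, where GlyGCC shares lie under the pseudocount of 0.01%, down to 0.00040%. With only positions kept where the mean Gly_non_GCC share was at least 10 times that pseudocount, 3 calls stood at positions 52 to 70 in place of 19. The positions kept there were all called, and the others were not tested. As the filter kept positions by a high Gly_non_GCC share, it is no stricter check of these calls.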
